A study of Homo sapiens with 6 samples.

Results

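Small nucleolar RNA (snoRNA) host genes were compared between LM3 cells with ZNF706 knockdown and control cells. LM3 is an established human hepatocellular carcinoma (HCC) cell line. The genes were chosen by name, as every SNHG gene with a number together with GAS5, EPB41L4A-AS1 and ZFAS1, which gave 30 of the 33007 genes in the deposited table. The control group held 3 samples of LM3 cells with the vector control, and the knockdown group held 3 samples of LM3 cells with stable knockdown of the zinc finger gene ZNF706. By the study's methods the knockdown came from a lentiviral short hairpin RNA with puromycin selection, so each group is a transduced and selected population, and the labels do not say which hairpin was used or whether the samples came from separate cultures. The p-values therefore measure the spread between these samples, which may be technical. The total counts were 62684076, 64713764 and 63054445 in control cells against 68548419, 65861994 and 69057423 after knockdown. The knockdown samples were therefore the deeper ones throughout, and levels are given as CPM (library-scaled counts, with TMM factors) beside the raw counts.

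A snoRNA host gene is transcribed as a long precursor, and its introns carry the snoRNAs that are released once the precursor is spliced. Box C/D snoRNAs guide 2'-O-methylation and box H/ACA snoRNAs guide pseudouridylation, mostly of ribosomal RNA, while scaRNAs do the same for the small nuclear RNAs of Cajal bodies. The spliced exons make the host RNA that is counted here, and many host RNAs begin with a terminal oligopyrimidine tract and are degraded by nonsense-mediated decay, so that the host RNA and the snoRNAs of a gene can differ in level. Several host RNAs, among them SNHG1, SNHG12, SNHG6 and GAS5, are known from studies of cancer cells.

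Of the 30 host genes, 28 contained at least 1 annotated snoRNA or scaRNA gene. These were matched by position and strand in GENCODE release 29 or by position alone in RefSeq. The exceptions were SNHG27 and SNHG28. Box C/D genes named SNORD lay in 14 hosts, box H/ACA genes named SNORA in 13 and scaRNA genes in 4. SNHG14 held 83 such genes, GAS5 held 11 (all from RefSeq) and SNHG1 held 8 (6 of them in GENCODE). The following snoRNAs show what the hosts that differed between the groups carry. The sequences are those of GENCODE release 29 transcripts (GRCh38), 5' to 3', and capitals mark box C (TGATGA, nearest the 5' end) and box D (CTGA, nearest the 3' end), or the ACA box near the 3' end.
SNORD25, in SNHG1, chr11:62855564-62855632, minus strand: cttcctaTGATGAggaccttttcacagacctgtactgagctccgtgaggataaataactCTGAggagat
SNORD27, in SNHG1, chr11:62855012-62855083, minus strand: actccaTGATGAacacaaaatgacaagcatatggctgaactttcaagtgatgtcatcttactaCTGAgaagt
SNORD30, in SNHG1, chr11:62853663-62853732, minus strand: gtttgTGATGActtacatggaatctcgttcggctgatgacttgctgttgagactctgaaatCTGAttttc
SNORD7, in SNHG30, chr17:35573657-35573753, plus strand: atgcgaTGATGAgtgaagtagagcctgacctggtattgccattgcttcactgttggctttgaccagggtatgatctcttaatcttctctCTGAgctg
SNORA13, in EPB41L4A-AS1, chr5:112161485-112161617, plus strand: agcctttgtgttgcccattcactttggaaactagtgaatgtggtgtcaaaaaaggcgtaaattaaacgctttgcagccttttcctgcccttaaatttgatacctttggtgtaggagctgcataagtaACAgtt
SNORA71A, in SNHG17, chr20:38427309-38427442, minus strand: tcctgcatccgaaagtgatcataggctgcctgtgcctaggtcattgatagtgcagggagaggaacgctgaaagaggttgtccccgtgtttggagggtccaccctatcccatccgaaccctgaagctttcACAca
SNORA71C, in SNHG17, chr20:38429670-38429803, minus strand: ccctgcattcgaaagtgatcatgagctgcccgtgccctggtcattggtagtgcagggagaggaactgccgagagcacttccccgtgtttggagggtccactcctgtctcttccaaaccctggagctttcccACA
SCARNA15, in SNHG21, chr15:82755945-82756071, plus strand: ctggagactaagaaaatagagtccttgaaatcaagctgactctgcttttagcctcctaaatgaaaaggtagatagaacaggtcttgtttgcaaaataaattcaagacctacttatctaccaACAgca
The first 4 are of the box C/D kind and the other 4 are of the box H/ACA kind.

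The targeted gene was examined first. ZNF706 (ENSG00000120963) had 3211, 3504 and 3357 counts in control cells against 2350, 2068 and 2298 after knockdown, which do not overlap. Its level was 53.9 ± 1.76 CPM (SD, n = 3) in control cells against 32.4 ± 1.39 CPM (SD, n = 3) in the knockdown group, which is -0.73 on the log2 scale (standard error, SE, 0.051, adjusted p = 3.7e-05, edgeR's quasi-likelihood test). Adjusted p-values below are from the same edgeR fit of all genes, with a threshold of 0.05.

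Knockdown of ZNF706 was accompanied by changes of moderate size in single host genes, in both directions. SNHG1, SNHG17, EPB41L4A-AS1, SNHG7, SNHG12 and SNHG26 were lower in the knockdown group, by 17.7% to 27.1%. SNHG30, SNHG21 and SNHG4 were higher, by 74.3%, 58.7% and 21.5%. Of the 28 host genes that passed the filter on low counts, 9 (32.14%) passed the test, against 22.8% of all 18390 genes tested. The 6 lower genes were 21.43% of the tested host genes, against 12.4% of all tested genes. The 3 higher genes were 10.71%, against 10.4% of all tested genes. The median log2 fold change of the 28 genes was -0.01, beside 0.01 over all tested genes, with 15 values below 0 and 13 above. The median absolute log2 fold change was 0.21 for the host genes and 0.20 for all tested genes. The host genes thus had no common direction, and their typical size of change was close to that of other genes. When the counts were scaled by library size alone, the calls over all genes turned from 1906 higher and 2286 lower to 2742 higher and 1518 lower, and those among host genes from 3 higher and 6 lower to 4 higher and 5 lower.

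**Figure D1:**
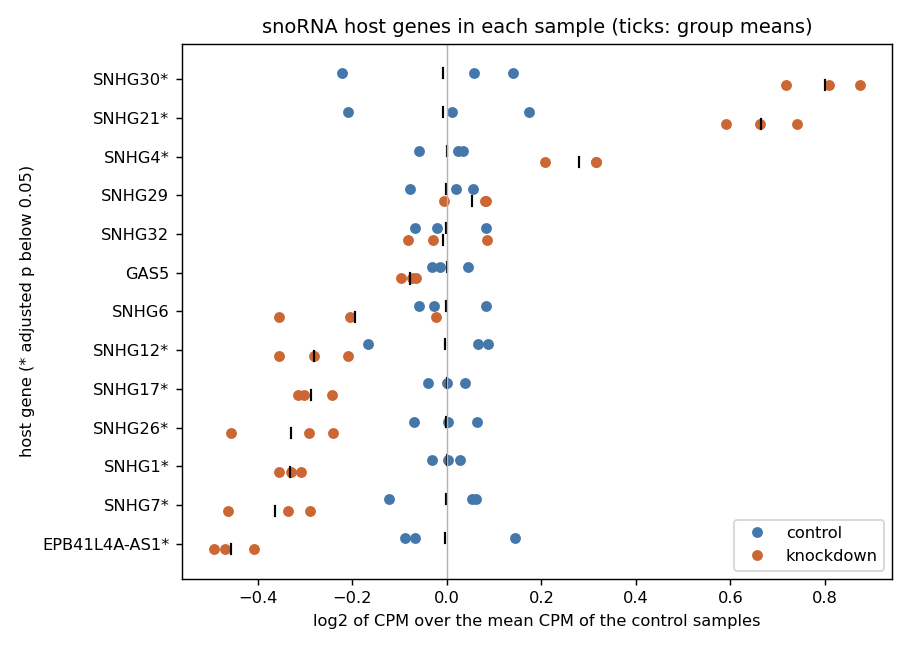
Level of 13 snoRNA host genes in each of the 3 control (blue) and 3 knockdown (orange) samples, as log2 of the CPM over the mean CPM of the control samples. Black ticks are group means and asterisks mark an adjusted p below 0.05; in each of the 9 marked genes the control and knockdown samples do not overlap.

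Summed over all 30 host genes, the level was 1473, 1538 and 1555 CPM in control cells against 1449, 1458 and 1490 CPM after knockdown. The means were 1522 ± 43.3 CPM and 1466 ± 21.5 CPM (SD, n = 3 each), and the samples of the groups overlapped. As a share of the total counts, the host genes took 0.149% in both groups. In bulk RNA, fewer cells with a host RNA and less of it in each cell cannot be told apart.

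SNHG1 (ENSG00000255717, GRCh38 chromosome 11, 62851984 to 62855953, minus strand), the host of SNORD22 and of SNORD25 to SNORD31, had the smallest adjusted p of the host genes. It had 10958, 10996 and 11056 counts in control cells against 10000, 9422 and 9662 after knockdown. Each knockdown sample was below each control sample, although the knockdown samples were sequenced more deeply. The level was 177 ± 3.58 CPM in control cells against 140 ± 2.26 CPM after knockdown (SD, n = 3 each). On the log2 scale the change was -0.33 (SE 0.034, adjusted p = 0.00020). It lay between -0.35 and -0.32 when any single sample was left out. The neighbouring gene SLC3A2, an amino acid transporter subunit that starts 149 bases away on the opposite strand, stood at 0.06 on the log2 scale (adjusted p = 0.272), and passed the test at 0.11 with library size alone (adjusted p = 0.0434).

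SNHG17 (ENSG00000196756, chromosome 20, 38419638 to 38435381, minus strand) carries 4 copies of the H/ACA family SNORA71, of which SNORA71A and SNORA71C are printed above. It had 3571, 3564 and 3636 counts in control cells against 3416, 3110 and 3272 after knockdown. All control samples were above all knockdown samples in counts and in CPM. The level was 57.7 ± 1.58 CPM in control cells against 47.3 ± 1.26 CPM after knockdown, which is -0.29 on the log2 scale (SE 0.041, adjusted p = 0.00113).

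EPB41L4A-AS1 (ENSG00000224032, chromosome 5, 112160526 to 112164818, plus strand) lies antisense to EPB41L4A and carries SNORA13. Its counts were 1507, 1570 and 1756 in control cells against 1368, 1234 and 1308 after knockdown. Control replicate 3 was the highest, and without overlap the level went from 25.9 ± 2.36 CPM to 18.9 ± 0.575 CPM. On the log2 scale the change was -0.46 (SE 0.081, adjusted p = 0.00338), the largest fall among the host genes that passed the test. EPB41L4A itself had 71 to 111 counts in control cells against 90 to 162 after knockdown (log2 fold change 0.36, adjusted p = 0.42). Whether the counting used strand is not given in the sources used here, so reads of the overlapping genes cannot be told apart.

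SNHG7 (ENSG00000233016, chromosome 9, 136721366 to 136728184, minus strand) carries SNORA17A and SNORA17B. It had 2054, 2399 and 2303 counts in control cells against 1839, 1922 and 2069 after knockdown. Knockdown replicate 3 exceeded control replicate 1 in raw counts, but on the CPM scale the groups did not overlap (33.2 to 37.7 against 26.2 to 29.6). On the log2 scale the change was -0.36 (SE 0.072, adjusted p = 0.00593).

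SNHG12 and SNHG26 were lower with less margin. SNHG12 (ENSG00000197989, chromosome 1, 28578538 to 28581878, minus strand) carries SNORA16A, SNORA44, SNORA61 and SNORD99. Its CPM values were 36.4, 43.4 and 42.8 in control cells against 35.4, 32.0 and 33.6 after knockdown. Control replicate 1 and knockdown replicate 1 were close, and the log2 fold change was -0.28 (SE 0.074, adjusted p = 0.0221). SNHG26 (ENSG00000228649, chromosome 7, 22854126 to 22872945, plus strand), the host of SNORD93, had 13.6, 12.9 and 14.2 CPM in control cells against 11.5, 11.1 and 9.89 CPM after knockdown. On the log2 scale the change was -0.33 (SE 0.094, adjusted p = 0.0324). Each of these 2 genes kept an adjusted p below 0.05 in 2 of 6 fits with a sample removed, and the adjusted p reached 0.0988 for SNHG12 and 0.104 for SNHG26. The other 7 genes passed the test in all 6 such fits.

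SNHG30 (ENSG00000267321, chromosome 17, 35568076 to 35574843, plus strand), the host of the box C/D snoRNA SNORD7, had the largest fold change of the 28 tested genes apart from SNHG14. Its counts were 377, 498 and 454 in control cells against 820, 835 and 912 after knockdown. The lowest knockdown sample was well above the highest control sample. The level was 7.11 ± 0.907 CPM in control cells against 12.4 ± 0.672 CPM after knockdown, which is 0.80 on the log2 scale (SE 0.115, adjusted p = 0.00113).

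SNHG21 (ENSG00000250988, chromosome 15, 82750564 to 82757206, plus strand) carries SCARNA15. It had 227, 304 and 262 counts in control cells against 448, 450 and 496 after knockdown, again without overlap. The level was 4.24 ± 0.558 CPM in control cells against 6.73 ± 0.350 CPM after knockdown, which is 0.67 on the log2 scale (SE 0.134, adjusted p = 0.00627). A further entry on the same strand, AC105339 (ENSG00000252690), overlaps it, with a fold change of -0.05 on the log2 scale (adjusted p = 0.792). The log2 ratio of the group means of the summed CPM of both entries was 0.29, beside 0.67 for SNHG21 alone.

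SNHG4 (ENSG00000281398, chromosome 5, 139274102 to 139283244, plus strand) carries snoRNA genes of the box H/ACA kind and lies within an entry of MATR3, a nuclear matrix protein gene. SNHG4 had 5730, 5552 and 5717 counts in control cells against 7948, 7594 and 7355 after knockdown. Every knockdown sample was higher, and the level went from 91.0 ± 3.20 CPM to 111 ± 4.71 CPM. On the log2 scale the change was 0.28 (SE 0.043, adjusted p = 0.00163). The table lists MATR3 under 2 identifiers. ENSG00000280987, which spans SNHG4, had 7282, 24102 and 7435 counts in control cells against 24135, 30303 and 6100 after knockdown. ENSG00000015479 had 28184, 12891 and 28154 counts in control cells against 15852, 6849 and 31768 after knockdown, so it was low where the other was high. Their sum, which was formed after these values were seen, was 578 ± 4.65 CPM in control cells against 555 ± 14.5 CPM after knockdown (log2 ratio -0.06). The counts of SNHG4 did not follow the exchange between the MATR3 entries, and how reads shared by SNHG4 and MATR3 were assigned was not tested.

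**Figure D2:**
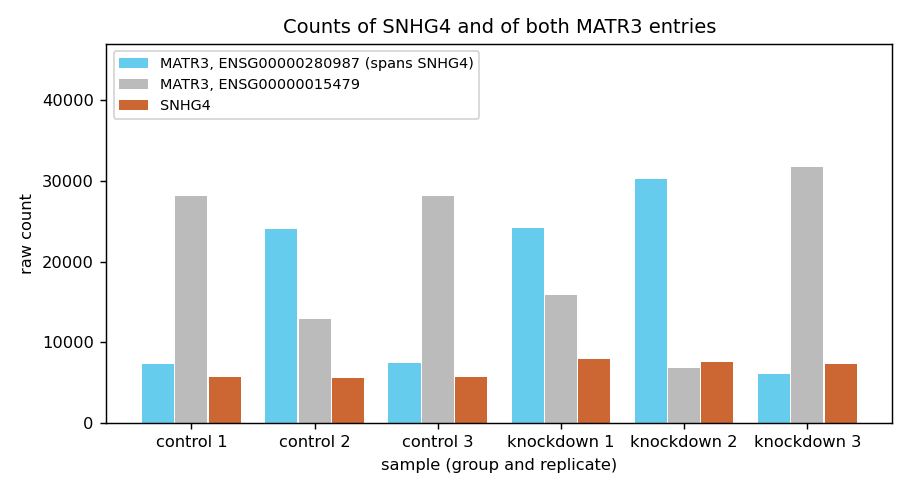
Raw counts of SNHG4 (orange) and of the 2 MATR3 entries of the table in each sample. The MATR3 entry that spans SNHG4 (light blue) lies between 6100 and 30303 and the other (grey) runs opposite to it, while SNHG4 lies between 5552 and 5730 in control cells against 7355 to 7948 after knockdown.

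The host genes were ranked by FPKM, which divides the counts by gene length and library size. SNHG32, SNHG6, SNHG29, SNHG1 and GAS5 led with mean values of 41.7, 40.3, 35.3, 34.9 and 32.0 FPKM over the 6 samples. Among them, only SNHG1 passed the test. The lengths implied by the deposited counts and FPKM run from 331 bases for SNHG25 to 242181 bases for SNHG14, so that the order depends on the length used. These lengths exceed the longest GENCODE transcript by unlike factors. They are 14440 against 1032 bases for SNHG5 and 2056 against 1053 bases for SNHG32. Both genes had nearly the same mean count (5620 and 5623) but mean values of 5.93 and 41.7 FPKM. The order by FPKM is therefore not a ranking of RNA abundance. SNHG1 stood at 38.3 ± 0.702 FPKM in control cells against 31.5 ± 0.551 FPKM after knockdown. The leading pair was not separated beyond its SDs, with SNHG32 at 41.1 ± 2.15 FPKM and SNHG6 at 42.3 ± 1.84 FPKM in the control group. In that group SNHG1 stood above SNHG29 (34.0 ± 1.31 FPKM) and GAS5 (32.4 ± 0.922 FPKM), whereas in the knockdown group SNHG29 (36.5 ± 1.25 FPKM) stood above GAS5 (31.7 ± 0.287 FPKM), which was level with SNHG1.

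**Figure D3:**
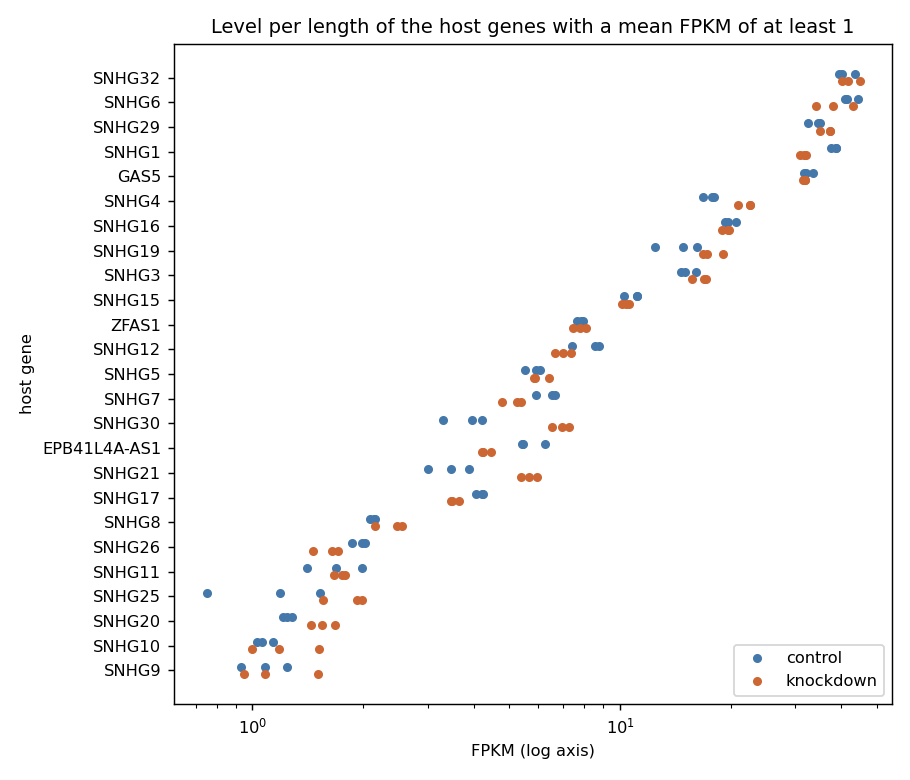
FPKM (log axis) of the 25 snoRNA host genes with a mean of at least 1, in each control (blue) and knockdown (orange) sample, ordered by the mean. SNHG32 is at the top with a mean of 41.7 FPKM, and the blue and orange points stand apart in SNHG1, SNHG4, SNHG30 and SNHG21.

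GAS5 (ENSG00000234741, chromosome 1, 173858559 to 173868882, minus strand), known for its accumulation on growth arrest, had 11025, 11941 and 11053 counts in control cells against 12126, 11417 and 12172 after knockdown. In CPM these were 178, 188 and 180 against 173, 170 and 174, so the groups did not overlap but were close. On the log2 scale the change was -0.08 (SE 0.034, adjusted p = 0.135). SNHG6 (ENSG00000245910) had 58.7, 60.0 and 64.7 CPM in control cells against 47.8, 53.1 and 60.2 CPM after knockdown. Knockdown replicate 3 lay within the control range, and the log2 fold change of -0.19 (SE 0.076) did not pass the test (adjusted p = 0.108). It did pass when knockdown replicate 3 was left out (-0.28, adjusted p = 0.0178), and by DESeq2 (adjusted p = 0.0475). SNHG32 (ENSG00000204387) had 81.9, 90.9 and 84.6 CPM in control cells against 81.1, 84.1 and 91.0 CPM after knockdown, which cover the same range (adjusted p = 0.945). SNHG29 (ENSG00000175061), the host of SNORD49A, SNORD49B and SNORD65, had 269, 287 and 295 CPM in control cells against 282, 300 and 300 CPM after knockdown. Its ranges overlapped as well (adjusted p = 0.431). For these genes the standard error was between 0.034 and 0.076 on the log2 scale.

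The remaining tested genes did not pass the test. SNHG20 and SNHG19 did not overlap between the groups and were higher in each knockdown sample, with log2 fold changes of 0.27 (adjusted p = 0.0751) and 0.24 (adjusted p = 0.225). With GAS5 and the 9 genes that passed the test, this made 12 of 28 host genes without overlap (42.86%), against 39.4% of all tested genes. SNHG20 overlaps SEC14L1 on the same strand, which was lower in the knockdown group (log2 fold change -0.20, adjusted p = 0.0341, called in 2 of 6 fits without a sample), and the log2 ratio of the summed CPM was -0.14. SNHG19 starts 340 bases from TRAF7, a ubiquitin ligase gene on the opposite strand, which was higher in the knockdown group (0.21, adjusted p = 0.00342). ZFAS1, the antisense partner of ZNFX1 and host of 3 box C/D snoRNAs, stood at -0.06 on the log2 scale (adjusted p = 0.329), and ZNFX1 at 0.01 (adjusted p = 0.908). SNHG3, SNHG5, SNHG8, SNHG10, SNHG11, SNHG15 and SNHG16 lay between -0.11 and 0.14. SNHG3 shares its start region and strand with RCC1, and their summed level had a log2 ratio of -0.01. Of 19 tested genes with a mean count over 100 that overlap a host gene or start within 1000 bases of it, 3 passed the test (15.8%), beside 22.8% of all tested genes. These were SEC14L1, TRAF7 and AL590560 (ENSG00000272668), which overlaps SNHG28 on the opposite strand and was higher (0.88, adjusted p = 0.0258, lost in 4 of 6 fits without a sample). UBE3A, which overlaps SNHG14, passed with DESeq2 (-0.15, adjusted p = 0.0311). It also passed with the replicate number as a block (adjusted p = 0.0255) and without knockdown replicate 1 (-0.21, adjusted p = 0.0105). LRRC75A, which overlaps SNHG29, passed with DESeq2 (0.46, adjusted p = 0.0494) and with library size alone (0.52, adjusted p = 0.0472). By limma on log2(FPKM + 1) its adjusted p was 0.0488, and without control replicate 3 it was 0.0396.

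SNHG9, SNHG22, SNHG25 and SNHG31 had mean counts below 50 and standard errors from 0.326 to 0.678, so that a change of the size seen in SNHG1 was not detectable at this depth. SNHG14, the long host of the imprinted SNORD115 and SNORD116 arrays, had 143, 35 and 31 counts in control cells against 46, 25 and 38 after knockdown. Its log2 fold change of -1.09 (SE 0.578, adjusted p = 0.216) rested on control replicate 1, without which it was -0.01. SNHG27 had 2, 0 and 0 counts in the control samples, with 0 in each knockdown sample, and SNHG28 had 0 in each control sample and 9, 0 and 4 in the knockdown samples. Both were below the filter and were not tested.

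**Figure D4:**
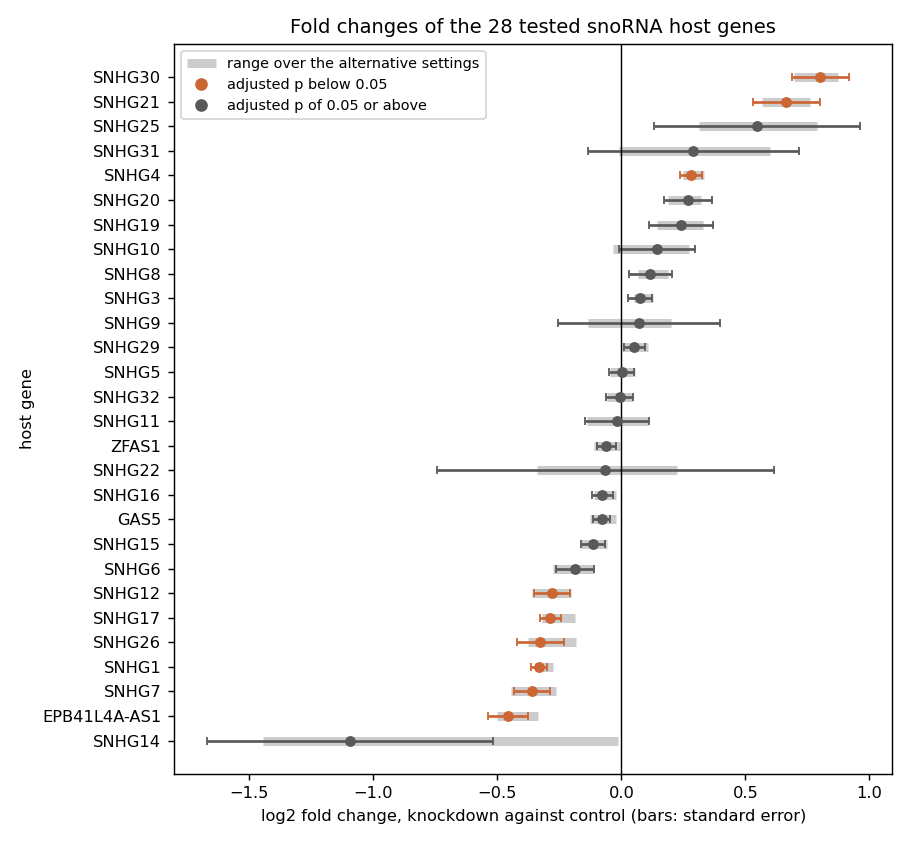
Log2 fold change, knockdown against control, of the 28 tested snoRNA host genes (points) with its standard error (bars) and the range over the alternative settings (grey). The 9 genes in orange have an adjusted p below 0.05; the grey ranges of these genes stay on their side of 0.

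The criteria of the study were taken here as an unadjusted p below 0.05 and a log2 change of 0.3 or more in size. The p-values were those of edgeR, whereas the study used DESeq2. Of the 28 tested host genes, 6 met the criteria, of which 4 were lower and 2 higher. Of all tested genes, 2848 (15.5%) met these criteria. Of these 2848 genes, 1081 were lower and the rest were higher. More of them were thus higher than lower. The host genes that met the criteria were too few for a balance between the directions to be read from them. SNHG17, SNHG12 and SNHG4 passed the adjusted test with a log2 change smaller than 0.3 in size.

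Sequences of the start regions show how the changed hosts differ in sequence. The 300-base RefSeq promoters (GRCh38.p14, 250 bases before the start to 50 after) were found for 26 of the 30 genes. The RefSeq start lay 154975 bases from the start of the counted gene for SNHG14, 37251 for SNHG27 and 1927 for SNHG20. For the other genes it lay at most 464 bases away (ZFAS1). All are included in the shares below, although the far ones may not be promoters of the counted genes. The following lines give the 50 bases around the start, 5' to 3' on the strand of the gene, for 2 hosts with a long pyrimidine run there and 2 without one there. Capitals mark the longest run of at least 5 pyrimidines that begins within 20 bases of the start, and runs that begin farther away are left in lower case.
SNHG12, lower, chr1:28581849-28581898, minus strand: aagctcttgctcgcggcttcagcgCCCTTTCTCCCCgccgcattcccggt
SNHG4, higher, chr5:139274076-139274125, plus strand: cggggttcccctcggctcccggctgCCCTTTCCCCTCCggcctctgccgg
EPB41L4A-AS1, lower, chr5:112160501-112160550, plus strand: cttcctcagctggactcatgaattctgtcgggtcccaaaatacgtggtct
SNHG30, higher, chr17:35568089-35568138, plus strand: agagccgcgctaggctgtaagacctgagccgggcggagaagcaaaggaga
A pyrimidine run of at least 5 bases that begins within 20 bases of the start was present in 20 of the 26 genes (76.9%), beside 60.5% of all 35116 promoters in the table. A run of at least 8 bases was present in 7 (26.9%), beside 18.4%. Hosts that were lower and hosts that were higher were found both with and without such a run.

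The letters CACGTG, the palindromic core of the E-box bound by basic helix-loop-helix factors, were in 2 of the 26 promoters (7.69%) and in 7.26% of all promoters. One belongs to a host that was lower and the other to a host that was higher. The motif is in capitals in the 100 bases around it.
SNHG7, lower, chr9:136728254-136728353, minus strand: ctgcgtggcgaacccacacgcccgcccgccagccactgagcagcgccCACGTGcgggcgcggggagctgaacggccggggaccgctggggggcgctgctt
SNHG30, higher, chr17:35568002-35568101, plus strand: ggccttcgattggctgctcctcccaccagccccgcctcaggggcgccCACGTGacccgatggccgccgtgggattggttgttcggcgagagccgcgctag
It lies 122 bases before the start of SNHG7 and 65 bases before that of SNHG30. The variant CACGCG, searched on both strands, was in 8 host promoters (30.8%) and in 11.4% of all promoters. The 8 hosts were SNHG1, SNHG12, SNHG21, SNHG26, SNHG3, SNHG16, SNHG28 and SNHG29. GGAAGTG, the core of an ETS site on either strand, was in 4 host promoters (15.4%) and in 11.2% of all promoters. These matches describe the letters of the reference only.

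The snoRNAs themselves could hardly be seen in these libraries. Of 55 rows for snoRNAs or scaRNAs inside the host genes, 5 passed the filter. None of these 5 passed the test by edgeR or DESeq2 or had an unadjusted p below 0.05 (0 in each). Over all 55 rows the median of the mean counts was 1. SNORA13, the snoRNA of EPB41L4A-AS1, had 17, 17 and 14 counts in control cells against 7, 11 and 6 after knockdown. The groups did not overlap, but the log2 fold change of -1.13 did not pass the test (adjusted p = 0.238). It did pass in both limma fits on FPKM, at -1.10 (adjusted p = 0.0104) with a pseudocount of 0.1 and at -0.61 (adjusted p = 0.00814) with a pseudocount of 1. SNORD93 in SNHG26 had 6, 8 and 7 counts in control cells against 19, 17 and 7 after knockdown and was not tested. Of all 318 rows for snoRNAs and scaRNAs, 45 were tested, and SNORD17 alone passed (log2 fold change -0.88, adjusted p = 0.0439), which held in 1 of the 6 fits without a sample. No row was called without a filter (0 of 304). With library size alone SNORD3A passed in its place (0.74, adjusted p = 0.0448), and with the length trend removed SNORD14E did (1.43, adjusted p = 0.0296). In both limma fits 4 of 63 rows were lower and 2 were higher. The host genes were therefore measured as host RNA, and the level of the mature snoRNAs is not given by these counts.

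Other genes that host snoRNAs were examined beside the SNHG family. Of the 147 tested protein-coding genes with an annotated snoRNA or scaRNA gene on their strand, 41 (27.9%) were lower and 11 (7.48%) were higher, with a median log2 fold change of -0.08. Scaled by library size alone, the counts were 26 lower (17.7%) and 19 higher (12.9%), beside 8.25% and 14.9% of all tested genes. The number that was higher was 5 to 8 when a sample was left out. HSPA8, a constitutive chaperone of the HSP70 family, went from 3667 ± 172 CPM to 2333 ± 140 CPM (log2 fold change -0.65, adjusted p = 4.2e-05). HAUS6, an augmin subunit of the mitotic spindle, went from 276 ± 3.14 CPM to 199 ± 4.49 CPM (-0.47, adjusted p = 3.7e-05). The RNA-binding protein gene RBMX (-0.39, adjusted p = 4.7e-05) and the methyl-CpG binding protein gene MBD2 (-0.36, adjusted p = 0.000269) followed. The higher genes of smallest p were the Mediator subunit gene MED24 (0.20), ASTN2 (1.07), DNAJC16 (0.39) and the isoleucyl-tRNA synthetase gene IARS1 (0.12), which lost its call in 2 of 6 fits without a sample (adjusted p up to 0.0701). Of these protein-coding hosts, 28 encode ribosomal proteins, and 3 of the 28 were lower by edgeR (7 by DESeq2). None of the 28 was higher by either tool or at an unadjusted p below 0.05 (0 in each). In all, 33 of the 152 protein-coding hosts were also in another list named here.

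Of the 15 tested hosts without a protein-coding class, 2 were higher and 2 were lower. DANCR, a long non-coding RNA and snoRNA host outside the SNHG names, had 2592, 2428 and 2563 counts in control cells against 3329, 3181 and 3355 after knockdown. It was higher without overlap (40.6 ± 2.09 CPM to 47.6 ± 0.290 CPM, log2 fold change 0.23, adjusted p = 0.00861). LINC00888 was higher as well (0.50, adjusted p = 0.0303) but lost its call in 4 of 6 fits without a sample, with an adjusted p of up to 0.114. ATP6V1G2-DDX39B, a readthrough entry that overlaps DDX39B, was lower (-0.60, adjusted p = 0.0025), and reads of overlapping entries may be split between them. AC016876 (ENSG00000264772) was lower too (-0.49, adjusted p = 0.0236), a call lost in 3 of 6 such fits. The number of these hosts that was higher was 1 without control replicate 1 or 3 or knockdown replicate 1, and 3 without knockdown replicate 3. The number that was lower was 1 without control replicate 1 or knockdown replicate 3.

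Long non-coding RNAs without snoRNAs served for comparison. Of 17 tested, 2 were higher and 3 were lower (17.6%), with a median log2 fold change near 0. The imprinted H19 went from 4713 ± 186 CPM to 3308 ± 202 CPM (-0.51, adjusted p = 9e-05), MIR22HG fell by 0.40 and MALAT1 by 0.18 on the log2 scale (adjusted p = 0.013 and 0.0324). NORAD, which binds Pumilio proteins, was higher (0.21, adjusted p = 0.00394), as was KCNQ1OT1 (0.45, adjusted p = 0.0412). When a sample was left out, 1 to 4 of these RNAs were higher (4 without knockdown replicate 3) and 1 to 3 were lower (1 without knockdown replicate 2). MALAT1 and KCNQ1OT1 each lost the call in 4 of 6 such fits, and MIR22HG in 1. A difference between H19 and the host genes was not tested.

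The proteins that form snoRNPs with the hosted RNAs changed in both directions. Of the 4 box C/D core proteins, the scaffold NOP58 was lower (158 ± 1.89 CPM to 140 ± 2.10 CPM, log2 fold change -0.17, adjusted p = 0.00437), and FBL, NOP56 and SNU13 did not pass the test. By DESeq2 and with the length trend removed, 2 of these 4 were lower. Of the 4 box H/ACA core proteins, the pseudouridine synthase DKC1 was lower (274 ± 6.80 CPM to 226 ± 1.95 CPM, -0.28, adjusted p = 0.000391) and GAR1 was lower (-0.18, adjusted p = 0.0416). GAR1 lost its call in 5 of 6 fits without a sample, without a filter, with library size alone and in both limma fits, which left DKC1 as the 1 lower protein there. NHP2 of the same particle was higher (93.1 ± 5.27 CPM to 119 ± 10.2 CPM, 0.35, adjusted p = 0.00385). With library size alone, in both limma fits and without knockdown replicate 1, the box H/ACA proteins had 2 higher and 1 lower. With the replicate number as a block or the length trend removed, 2 were higher and 2 lower. Of 13 tested assembly factors, 4 were lower and 3 higher. The balance turned with library size alone (2 lower and 4 higher) and in both limma fits (2 lower and 3 higher). NAF1, an assembly factor of H/ACA particles (-0.36, adjusted p = 0.00179), the C/D assembly factor ZNHIT6 (-0.33, adjusted p = 0.00192) and NOLC1 (-0.13, adjusted p = 0.0122) were lower. The ATPase gene RUVBL1 was higher (0.26, adjusted p = 0.00215), and the number of higher factors was 1 without control replicate 1 or 2 or without knockdown replicate 2 or 3, and 2 without knockdown replicate 1. The median of the box H/ACA proteins and that of the assembly factors changed sign, to 0.03 and 0.02, when the counts were scaled by library size alone.

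Genes that act on host RNAs after transcription were lower more often than higher. Of the 20 factors of nonsense-mediated decay, 12 (60%) were lower and 1 was higher, with a median log2 fold change of -0.15. SMG5, which recruits phosphatase and decay enzymes, went from 126 ± 3.43 CPM to 91.1 ± 3.77 CPM (-0.46, adjusted p = 0.000106). SMG9 (-0.35), the kinase gene SMG1 (-0.24) and the exonuclease gene XRN1 (-0.23) were lower too, while the decapping cofactor gene PNRC2 was higher (0.17, adjusted p = 0.00733). With scaling by library size alone, 6 (30%) of these factors were lower and 1 was higher, beside 8.25% and 14.9% of all tested genes. Without knockdown replicate 2 the number of lower factors was 7. Of 13 regulators of terminal oligopyrimidine messenger RNAs, 5 were lower and none was higher by edgeR, with 1 higher at an unadjusted p below 0.05 and 1 by DESeq2. LARP1, which binds the cap and the pyrimidine tract, was lower (-0.21, adjusted p = 0.00205), and LARP4, TIA1 and TIAL1 lay between -0.22 and -0.18. With the GC trend removed, 2 of these regulators were lower.

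Genes of ribosome production were examined as well. Of 28 factors of ribosomal RNA processing, 11 (39.3%) were lower and none was higher by edgeR, by DESeq2 or at an unadjusted p below 0.05 (0 in each), with a median log2 fold change of -0.07. The helicase gene DDX21 (-0.26, adjusted p = 0.000656), NOP2 (-0.26), NOP16 (-0.26) and UTP4 (-0.22) had the smallest p. With scaling by library size alone, 5 of these factors (17.9%) were lower, beside 8.25% of all tested genes. Without knockdown replicate 2 the number was 6. Of the 77 cytosolic ribosomal protein genes, 8 (10.4%) were lower and 1 was higher, and the median was -0.06. The number of calls varied with the processing. By DESeq2 17 were lower and 3 higher, and with the length trend removed 22 were lower and 1 higher. With the GC trend removed 4 were lower and 1 higher. With library size alone 1 was lower and 5 were higher, in both limma fits 0 were lower and 3 higher, and without a filter none was called (0). When a sample was left out, between 0 (without control replicate 2 or knockdown replicate 2) and 22 (without knockdown replicate 3) were lower. The median was below 0 in each of these fits, from -0.12 without knockdown replicate 3 to -0.0033 with library size alone.

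**Figure D5:**
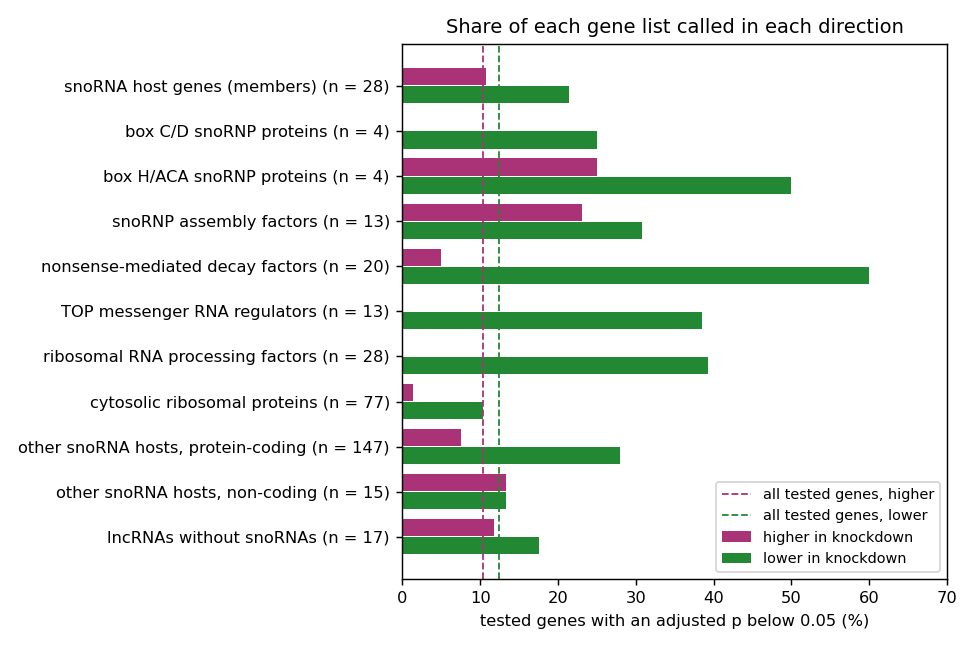
Percentage of the tested genes of each list with an adjusted p below 0.05, higher (purple) or lower (green) in the knockdown group, with n the number tested. Dashed lines mark the shares over all tested genes, 10.4% higher and 12.4% lower. The longest bar is the 60% of nonsense-mediated decay factors that were lower. With scaling by library size alone it is 30%, beside 8.25% of all tested genes in that fit.

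The identity of the cells was examined by marker genes. Of the 5 epithelial markers, the keratins KRT8 and KRT18 were abundant, with 1537 ± 39.5 CPM and 963 ± 46.9 CPM in control cells against 1543 ± 61.0 CPM and 898 ± 11.1 CPM after knockdown. KRT19, the cadherin gene CDH1 and EPCAM were low, with 1.29 ± 0.426, 2.10 ± 0.453 and 0.379 ± 0.218 CPM in control cells against 2.29 ± 0.275, 3.17 ± 0.524 and 0.639 ± 0.514 CPM after knockdown. None of the 5 passed the test by edgeR (0), where 2 were higher and 1 was lower at an unadjusted p below 0.05, and 1 was higher and 1 lower by DESeq2. The log2 fold changes were 0.83 for KRT19, 0.59 for CDH1, 0.75 for EPCAM, 0.01 for KRT8 and -0.10 for KRT18 (adjusted p = 0.054 to 0.933). Hepatocyte markers were low. Albumin (ALB) had 10.5 ± 6.47 CPM in control cells against 6.60 ± 4.05 CPM after knockdown, and TTR was near 0. The 8 hepatocyte markers summed to 13.9, 31.4 and 36.3 CPM in control cells against 16.8, 17.8 and 8.56 CPM after knockdown, and SERPINA1 and APOB were lower (-1.47 and -0.98, adjusted p = 0.00336 and 0.0205, the latter lost in 4 of 6 fits without a sample). Of 7 tested markers of other cell types, COL1A1 and PDGFRB were higher (0.20 and 0.68, adjusted p = 0.00231 and 0.00297), with COL1A1 the most abundant at 73.8 ± 1.27 CPM in the control group. The 10 markers of other cell types in the data, tested or not, summed to 86.6 to 90.7 CPM in control cells against 101 to 104 CPM after knockdown, and the leukocyte marker PTPRC had at most 8 counts. The part of these differences in the values of the host genes was not tested.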

How the data were processed

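RNA of 6 LM3 samples was sequenced on the Illumina NovaSeq system. Per the study's methods the reads were aligned by the authors with HISAT2, and the submitters' processing notes name GRCh38, cutadapt 1.9 and FastQC. The counting program, the use of strand and the annotation release are not given in the sources used here. The authors deposited raw counts per gene and FPKM values, in which they took account of gene length and sequencing depth. The gene positions are on GRCh38. They overlapped those of GENCODE release 29 for 32055 of 32092 genes found in both.

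Low counts were removed with filterByExpr, which left 18390 genes. The groups were compared in edgeR 4.0.16 (R 4.3.3) after TMM scaling, by the quasi-likelihood functions glmQLFit and glmQLFTest, and p-values were adjusted by Benjamini-Hochberg. The group was the only term, and the SE was taken from the fold change and its F statistic. The fit was tested on simulated data in which 200 genes were changed. Of genes with a true log2 change of -0.3 or 0.3, 30.4% and 31.25% were called. At -0.6 and 0.6 the shares were 48.9% and 59.2%, and 7 of 17634 unchanged genes were called. Many true changes of these sizes were thus missed there. In the data far more genes passed than were changed in the simulation, so these shares may differ there. For a gene on its own, exact permutation of 3 samples against 3 reaches 0.1 (two-sided) at the lowest. Alternatives were DESeq2 1.42.0, its size factors in edgeR, library size alone, other filters, limma 3.58.1 on log2(FPKM + 0.1) and log2(FPKM + 1) with a mean FPKM of 0.5 or more, loess trends of GC content and length removed, the replicate number as a block, and each sample left out in turn.

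Values per sample are given for host genes with an adjusted p below 0.05 and for the 5 of highest FPKM, and from each list the genes that passed, or the 4 of smallest p. The same rule names ZNF706, MYC and the genes that overlap a host gene or share its start region, and of these MYC and 1 neighbouring gene are not reported here. The host genes and lists were chosen with earlier results of these data known. The ribosomal protein list, the values of DANCR in every sample and the sum of the MATR3 entries were chosen after their values were seen.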

Additional observations from a re-analysis of the deposited data

How the results depend on the processing

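SNHG1, SNHG17, EPB41L4A-AS1, SNHG7, SNHG30, SNHG4 and SNHG21 kept their direction and an adjusted p below 0.05 in every alternative fit. SNHG12 and SNHG26 kept their direction but lost the call in several. The number of host genes that passed was 9, and 10 with DESeq2, 9 with its size factors, 9 with library size alone, 7 without a filter, 10 with a mean count of at least 50, 7 in both limma fits, 8 with the GC trend removed, 11 with the length trend removed and 7 to 9 when a sample was left out. Among all genes, 4192 passed, and 2648 to 3424 when a sample was left out, the lowest without knockdown replicate 2. Without a filter 1253 genes were higher in place of 1906, and 1518 genes were lower with library size alone in place of 2286, with 1512 and 1517 in the limma fits. With the replicate number as a block, 4361 genes and 10 host genes passed, 28 ribosomal protein genes were lower and 2 higher, and no snoRNA row was called (0 of 45). Over the genes as a whole, same-numbered samples did not deviate together (r = 0.027, -0.028 and 0.029). With 3 samples a group, these values cannot decide whether the numbers pair the samples. The summed level of the ribosomal protein genes rose with the number in both groups. It was 47340, 50520 and 51130 CPM in control cells against 44230, 47320 and 50510 CPM after knockdown. SNHG20 passed with library size alone (0.32, adjusted p = 0.0401) and with a mean count of at least 50 (0.27, adjusted p = 0.0496), GAS5 with the length trend removed (-0.13, adjusted p = 0.0194), SNHG6 with the length trend removed (-0.21, adjusted p = 0.0257) and with the replicate block (-0.19, adjusted p = 0.0197), and SNHG15 without control replicate 1 (-0.16, adjusted p = 0.0421).

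Changes of sign were limited to genes that did not pass the test. With the GC trend removed, the log2 fold change was -0.0199 for SNHG9, -0.0011 for TRNAU1AP, 0.0416 for BARD1, 0.0440 for AC105339 and -0.0025 for RPS2. With the length trend removed it was -0.0469 for SNHG5, -0.0194 for TRNAU1AP, -0.0166 for GLRX5 and -0.0054 for RPS2. With library size alone it was 0.0462 for SNHG32, 0.0372 for SNHG11 and 0.0099 for RCC1, and in the limma fits it was 0.0408 and 0.0400 for SNHG32, 0.0436 and 0.0265 for SNHG11 and 0.0032 in both for RCC1. For SNHG5 it was -0.0010 with DESeq2 and with its size factors, and -0.0023 without a filter. When a sample was left out, the values ranged from -0.0343 to 0.2743 for SNHG10, -0.0092 to 0.5998 for SNHG31, -0.1333 to 0.2021 for SNHG9, -0.0548 to 0.0346 for SNHG32, -0.1369 to 0.1066 for SNHG11, -0.3396 to 0.2261 for SNHG22 and -0.0455 to 0.0333 for SNHG5. For neighbouring genes they ranged from -0.0445 to 0.0541 for ZNFX1, -0.0117 to 0.0411 for TRNAU1AP, -0.0755 to 0.0093 for RCC1, -0.0113 to 0.0764 for GLRX5, -0.0007 to 0.0994 for RPS2, -0.0414 to 0.1438 for MYO5B and -0.0200 to 0.0401 for ACAA2. The cause of these changes was not tested.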
